A study of Mus musculus with 6 samples.

Results

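The mitosis, spindle and kinetochore genes described here are 54 genes whose products carry a cell from the end of G2 phase through division. They were listed by symbol and matched to the gene symbols of the authors' deposited table of transcript clusters, where 54 of 54 were found, out of 21442 named genes measured. Mitosis begins when cyclin B and Cdk1 phosphorylate many proteins. The kinetochores, protein plates on the centromeres, then attach chromosomes to spindle microtubules, while a checkpoint holds back the anaphase-promoting complex until every chromosome is attached. Cytokinesis finally splits the cell, and because most of these genes are transcribed mainly in G2 and M phase, their mRNAs are widely used as measures of dividing cells. Natural killer (NK) cells, cytotoxic lymphocytes of the innate immune system, divide in response to interleukin-2.

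The samples were mouse splenic NK cells, given as C57BL/6 in the protocol and the series title and as C57BL/5 in the strain field. T cells had been removed with anti-Thy1.2 and complement, and the remaining cells were kept for 7 days with 1000 IU of interleukin-2, a treatment that both groups share. Cells were then sorted as CD3-CD122+ into Ly49C/I+ cells, which carried the inhibitory receptors Ly49C or Ly49I and no Ly49G2, and Ly49G2+ cells, which carried Ly49G2 and neither of the others. There were 3 Ly49C/I+ arrays and 3 Ly49G2+ arrays of an Affymetrix-labelled expression platform. No genotype other than the strain, no age and no number of mice are given, and no label ties a sample to its own mouse or culture. The p-values therefore cover only the variation among these 6 samples, which may be technical. The submitters' design text records changes above 1.5-fold.

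All values are log2 signals averaged over the exon-level probe sets of a gene. Differences are Ly49C/I+ minus Ly49G2+, and a gene is called when the limma p-value, adjusted by the Benjamini-Hochberg method over all 21442 genes, was under 0.05. Arrays give no read depth, and their number limits the precision. Over all probe sets the 6 array medians were alike after the submitters' RMA normalization (7.73 to 7.75). In the labels, Ly49G2+ replicate 1 carries the Ly49C/I+ name in its source field but not in its title or description, which also write the receptor as Ly49G. Its signal for Klra9, the gene of Ly49I, was 9.82, with the other Ly49G2+ arrays at 9.60 and 9.84 and the Ly49C/I+ arrays at 11.67 to 11.91. Ly49G2+ replicate 2 stood apart within its group for the mitosis genes, as given below, and not for these alone. Over all genes its correlations with Ly49G2+ replicates 1 and 3 were r = 0.9982 and 0.9981, and replicates 1 and 3 correlated at r = 0.9991. Of the 11 NK cell markers 0 lay below the lower quartile of the arrays, with mean signals over the list of 11.74 to 11.82 in Ly49C/I+ cells and 11.69 to 11.74 in Ly49G2+ cells. Klre1 was called higher in Ly49C/I+ cells (difference 0.22, limma adjusted p = 0.0339), and 0 of the 11 were called lower. Over all genes 6.19% were called higher.

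Ly49C/I+ cells had more mRNA of almost every mitosis gene. Of the 54 genes, 52 were higher in Ly49C/I+ cells and 0 were lower, where 6.19% of all genes tested were called higher and 3.77% lower. The remaining 2, Bub3 and Pttg1, did not pass, and their differences had the same sign. The median difference over the 54 genes was 0.41 on the log2 scale (1.33-fold), against -0.01 over all genes. Differences of single genes ran from 0.11 for Bub3 to 0.705 for Birc5 (1.08-fold to 1.63-fold), so the shift was small for each gene and shared by many. For 54 of 54 genes the lowest Ly49C/I+ array lay above the highest Ly49G2+ array, where 14.2% of all genes did so and 13.6% had every Ly49C/I+ array lower. Only 7 of the genes were called and reached 1.5-fold, where 0.364% of all genes did. The mitosis genes were also brighter than most, with a lowest signal percentile of 59.1 among all genes, and among genes above the median signal 11.0% were called higher in the same fit. In bulk samples such as these, a larger share of dividing cells and more mRNA per dividing cell cannot be told apart.

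The count depended on how the spread was estimated and how probe sets were combined. When probe sets were summarised by their median rather than their mean, 33 of the 54 genes were called higher, where 2.18% of all genes were. Without variance moderation 32 were called, where 2.48% of all genes were. By the p-values that the authors' deposited table holds for transcript clusters, 37 were called higher, where 2.26% of all transcript clusters were. None of the 54 was called lower under any of these 3 settings. Among genes given below with values on every array, Birc5, Cenpk, Kif20b, Kif11, Nusap1 and Top2a did not pass with the median (limma adjusted p 0.0567 to 0.199). Ttk, Cenpk, Kif18a, Mki67 and Kif11 did not pass without moderation (0.0538 to 0.172), and Plk4, Kif18a, Kif20b and Top2a did not by the deposited p-values after Benjamini-Hochberg adjustment (0.0515 to 0.0798). The median moved the differences of 6 called genes by more than 1.5 times. It gave 0.54 for Cdk1, 0.19 for Aurka, 0.23 for Incenp, 0.22 for Spc25, 0.19 for Kif23 and 0.19 for Racgap1, and none of these 6 kept its call.

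**Figure D1:**
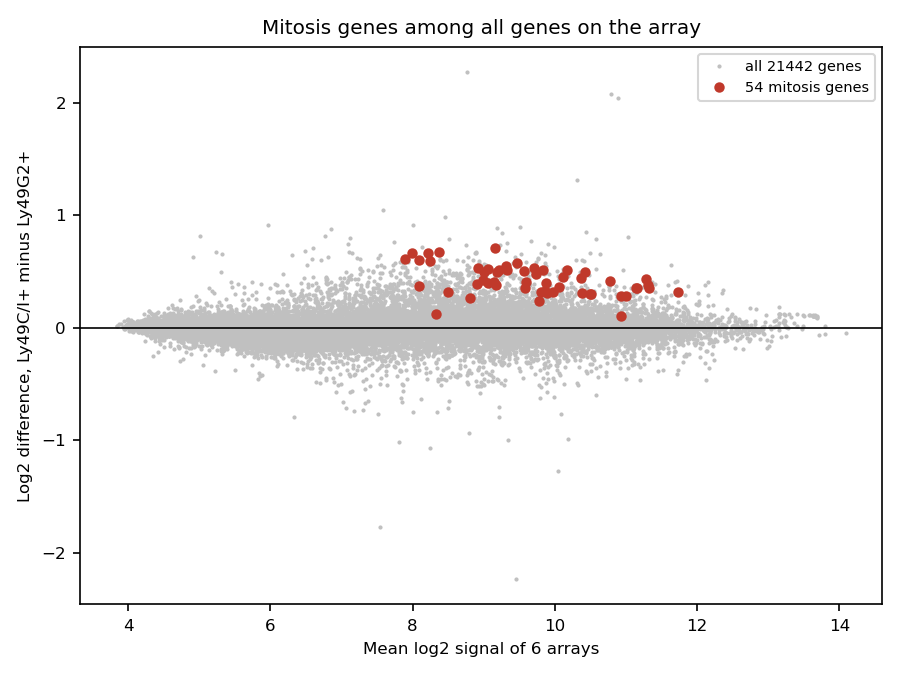
Log2 difference between Ly49C/I+ and Ly49G2+ cells (vertical axis) against the mean log2 signal of the 6 arrays (horizontal axis) for all 21442 genes in grey and the 54 mitosis genes in red. The 54 red points lie above 0, between 0.11 and 0.705, while the grey points centre on a median of -0.01.

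The shift was seen on every array. Relative to each gene's mean over the 6 arrays, the median mitosis gene stood at 0.21, 0.23 and 0.20 on the Ly49C/I+ arrays, against -0.17, -0.28 and -0.18 on the Ly49G2+ arrays. Over all genes the same medians lay between -0.013 and 0.013. RMA normalization brings arrays to a common distribution, so these alike centres cannot show whether the arrays differed before it. Ly49G2+ replicate 2 held the lowest value for 40 of the 54 genes. Ly49G2+ replicates 1 and 3 did so for 6 and 8 genes. Without Ly49G2+ replicate 2, 51 of the 54 genes were called higher, with a median difference of 0.38. Without Ly49G2+ replicate 1, whose source label is in doubt, 52 were called, with a median of 0.43. The spread among Ly49G2+ arrays reached an SD of 0.19 for Kif18a, and among Ly49C/I+ arrays 0.13 for Kif11 (n = 3 each). These were the widest of the 54 genes, and the median SDs were 0.052 and 0.041 in Ly49G2+ and Ly49C/I+ cells.

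**Figure D2:**
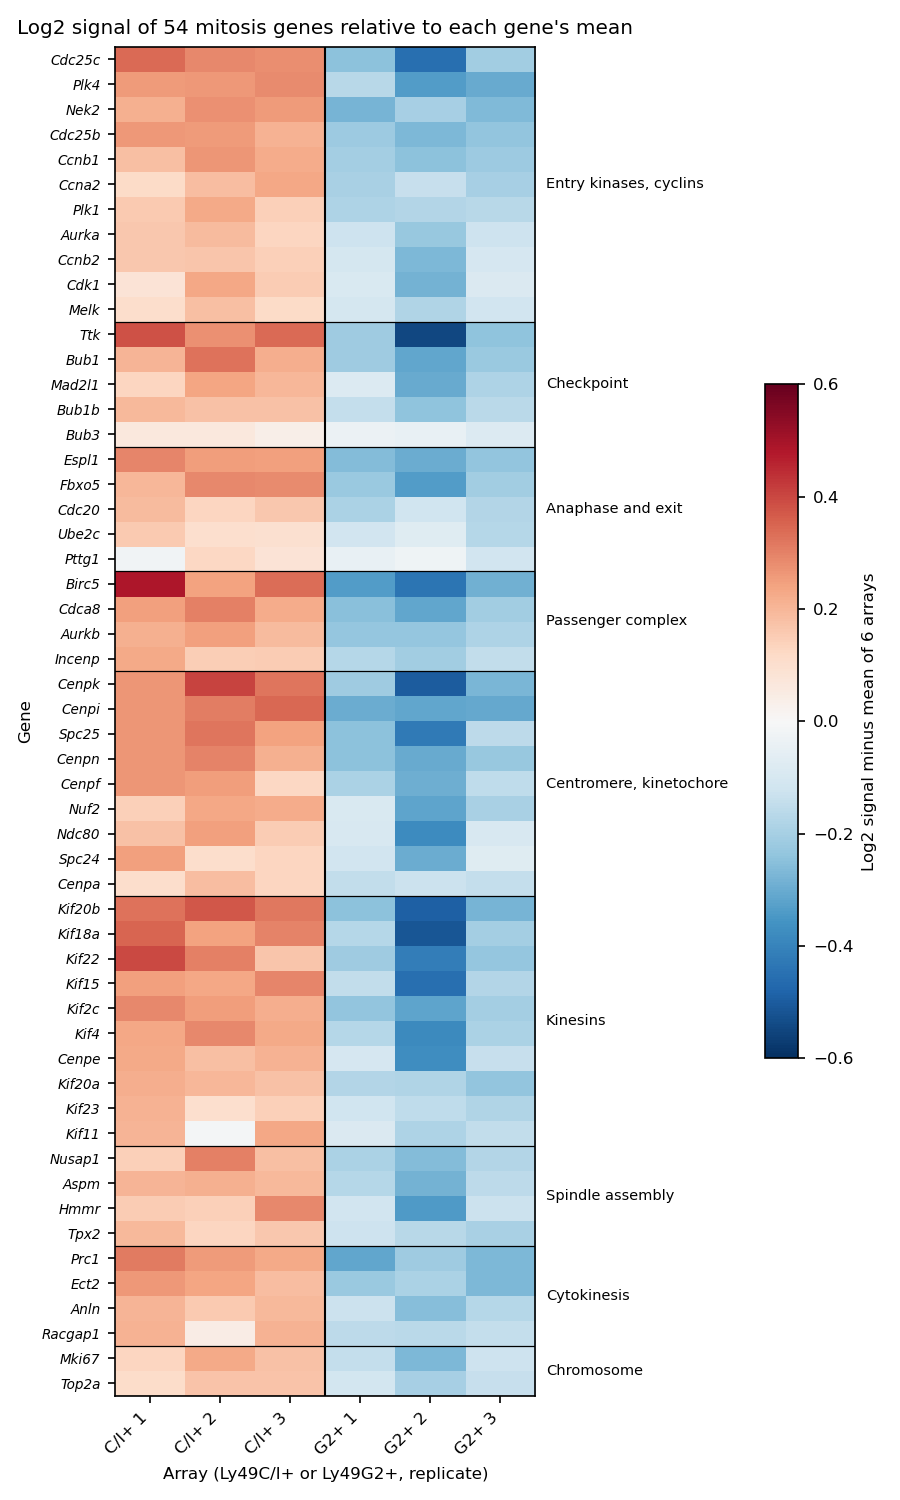
Log2 signal of each of the 54 mitosis genes (rows, by role) minus that gene's mean over the 6 arrays, for the 3 Ly49C/I+ arrays on the left and the 3 Ly49G2+ arrays on the right, as colour. The Ly49C/I+ columns are warm and the Ly49G2+ columns cool, apart from near-white cells for Bub3 and Pttg1 and for Kif11 and Racgap1 on Ly49C/I+ replicate 2, and Ly49G2+ replicate 2 is the darkest column, lowest for 40 genes.

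Markers of other cell types were examined beside this shift. Of 15 measured T cell markers, 0 were higher and 4 lower in Ly49C/I+ cells, where 3.77% of all genes were called lower. These 4 were Cd3e, Cd3d, Cd3g and Cd8a, chains of the CD3 complex and of CD8. Cd3e averaged 8.34 in Ly49C/I+ cells, against 10.57 in Ly49G2+ cells (difference -2.23), and the other 3 differed by -1.77, -0.99 and -0.72. The mean log2 signal over the T cell list was 8.34 to 8.42 in Ly49C/I+ cells and 8.74 to 8.77 in Ly49G2+ cells. No array value is 0, and Themis was the T cell marker below the arrays' lower quartile. These 4 T cell markers moved in the opposite direction to the mitosis genes, and their part in the result was not tested. At an unadjusted p under 0.05, 2 T cell markers were higher and 5 lower. The 2 higher were Cd247, also a chain of the CD3 complex (0.15), and Cd6 (0.10). The 5 lower were the 4 called and Icos (-0.18). Cd8b1, the other CD8 chain, Cd5 and Cd4 had differences of -0.071, -0.085 and 0.090 and did not pass by either p. These genes were named after their values were seen. B cell markers (0 of 8 called, 1 lower at an unadjusted p under 0.05) had a mean signal of 5.97 to 6.00 in Ly49C/I+ cells and 5.98 to 6.05 in Ly49G2+ cells, and erythroid markers (0 of 5 by either p) 6.31 to 6.32 and 6.27 to 6.37 in the same groups. Below the lower quartile lay 3 of the 8 B cell and 1 of the 5 erythroid markers. Of 9 myeloid markers 2 lay there, Cd14 was lower in Ly49C/I+ cells and none was higher, and the list had a mean of 7.04 to 7.06 in Ly49C/I+ cells and 7.04 to 7.08 in Ly49G2+ cells.

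Genes expressed in G2 and M phase often share promoter elements, which were searched in the 300 bases from 250 before to 50 after the transcription start in RefSeq (build GRCm38.p6). The cell cycle genes homology region (CHR), bound by the MuvB complex, was searched as TTTGAA, and the CCAAT box, bound by NF-Y, as CCAAT, each on both strands. The table holds 52 promoters of 47 of the genes. CHR letters were in 35 of the 52 (67.3%), where 17.9% of all 32851 promoters held them. CCAAT letters were in 39 (75.0%, against 37.4% of all), and both motifs in 30 (57.7%, against 6.95% of all). At least 2 CCAAT boxes were in 25 of the 52, or 48.1%, against 11.7% of all promoters. In the Cdca8 promoter 1 CHR match overlapped a CCAAT match, and elsewhere in the 52 none did. A match is a description of the letters and not a measured binding site.

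The promoters shown next were chosen to set that pattern beside the sizes of the differences. Ttk has a large difference and both motifs, Ccnb2 is the brightest of the genes and has 3 CCAAT boxes, Birc5 has the largest difference, and Bub3 the smallest. Capitals mark CHR and CCAAT letters on either strand, and each sequence runs 5′ to 3′ along the gene. They lie at chr9:83834439-83834738 (Ttk, plus strand), chr9:70421505-70421804 (Ccnb2, minus strand), chr11:117848987-117849286 (Birc5, plus strand) and chr7:131560120-131560419 (Bub3, plus strand, the first of its listed starts).
Ttk: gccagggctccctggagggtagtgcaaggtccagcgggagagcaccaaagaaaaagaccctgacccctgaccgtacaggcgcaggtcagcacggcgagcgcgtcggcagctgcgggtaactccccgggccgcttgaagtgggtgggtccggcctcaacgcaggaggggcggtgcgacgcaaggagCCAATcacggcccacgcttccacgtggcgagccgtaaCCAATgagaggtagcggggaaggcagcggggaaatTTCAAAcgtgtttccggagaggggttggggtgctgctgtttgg
Ccnb2: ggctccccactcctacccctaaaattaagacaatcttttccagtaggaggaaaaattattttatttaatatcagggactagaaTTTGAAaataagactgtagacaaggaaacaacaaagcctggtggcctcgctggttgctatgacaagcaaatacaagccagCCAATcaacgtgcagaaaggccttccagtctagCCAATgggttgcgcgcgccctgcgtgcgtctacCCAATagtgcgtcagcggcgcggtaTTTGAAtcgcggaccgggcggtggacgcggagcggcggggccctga
Birc5: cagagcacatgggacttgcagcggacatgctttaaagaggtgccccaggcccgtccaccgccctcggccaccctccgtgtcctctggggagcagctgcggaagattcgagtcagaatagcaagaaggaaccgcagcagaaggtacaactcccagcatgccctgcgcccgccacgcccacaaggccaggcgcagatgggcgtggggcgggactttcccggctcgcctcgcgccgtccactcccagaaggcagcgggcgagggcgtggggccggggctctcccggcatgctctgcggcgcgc
Bub3: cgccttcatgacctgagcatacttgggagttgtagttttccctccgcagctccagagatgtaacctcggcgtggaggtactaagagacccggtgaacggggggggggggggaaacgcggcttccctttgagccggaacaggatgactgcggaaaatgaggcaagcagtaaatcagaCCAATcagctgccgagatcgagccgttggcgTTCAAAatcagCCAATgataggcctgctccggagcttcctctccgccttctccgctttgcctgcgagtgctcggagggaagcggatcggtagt

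The printed Birc5 window held neither motif in these letters, and Birc5 differed most. The Bub3 window held both, and Bub3 did not pass. Over the genes with a promoter, the 27 with both motifs had a median difference of 0.36, the 7 with CCAAT alone 0.49, the 5 with CHR alone 0.50 and the 8 with neither 0.41. These medians are a description, and whether the letters go with the size of the difference was not tested. The 8 genes with neither were Birc5, Kif18a, Mad2l1, Melk, Nuf2, Nusap1, Plk4 and Pttg1.

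The genes of mitotic entry were higher in Ly49C/I+ cells in 11 of 11 cases, by 0.27 to 0.61 (median 0.35). Cdc25c, a phosphatase that activates Cdk1, had log2 signals of 8.43, 8.38 and 8.37 in Ly49C/I+ cells, against 7.85, 7.64 and 7.88 in Ly49G2+ cells. The groups did not overlap, and Ly49G2+ replicate 2 was the lowest array. The difference was 0.61 ± 0.064 (SE), or 1.52-fold, with a limma adjusted p of 0.000365. Plk4, the kinase of centriole duplication, stood at 9.18, 9.19 and 9.21 in Ly49C/I+ cells and at 8.76, 8.59 and 8.62 in Ly49G2+ cells. Its Ly49C/I+ arrays agreed within 0.03, and each lay above all Ly49G2+ arrays. The difference was 0.53 ± 0.052 (SE; limma adjusted p = 0.000261). The mitotic cyclins Ccna2, Ccnb1 and Ccnb2 were 1.28-fold, 1.36-fold and 1.24-fold higher, and their partner kinase Cdk1 1.24-fold. Nek2, a kinase of centrosome separation, and Cdc25b, another Cdk1 phosphatase, were 1.41-fold and 1.40-fold higher. Plk1 and Aurka, kinases of spindle poles and chromosome alignment, were 1.27-fold and 1.25-fold higher, and the kinase gene Melk had the smallest difference of these 11, at 1.20-fold. Cdk1 is 1 of the less certain calls, since without Ly49C/I+ replicates 2 or 3 its limma adjusted p was 0.0581 or 0.0546.

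Among genes of the spindle assembly checkpoint 4 of 5 were higher in Ly49C/I+ cells. Ttk, the kinase Mps1 that starts checkpoint signalling at kinetochores, had signals of 8.60, 8.49 and 8.56 in Ly49C/I+ cells, against 8.01, 7.67 and 7.98 in Ly49G2+ cells. Its groups were separated by more than their own ranges, although Ly49G2+ replicate 2 widened the spread of its group to an SD of 0.18. The difference was 0.66 ± 0.082 (SE), or 1.58-fold (limma adjusted p = 0.000815). Bub1, a kinase that recruits checkpoint proteins, had signals of 10.63, 10.75 and 10.64 in Ly49C/I+ cells and 10.21, 10.11 and 10.20 in Ly49G2+ cells. That is a difference of 0.50 ± 0.051 (SE; limma adjusted p = 0.00031) with no overlap. Mad2l1 and Bub1b, whose products bind Cdc20 and restrain it, were 1.30-fold and 1.29-fold higher. Bub3, their shared partner, had 11.00, 11.00 and 10.97 in Ly49C/I+ cells, against 10.90, 10.89 and 10.85 in Ly49G2+ cells. The Bub3 groups did not overlap, but the difference of 0.11 ± 0.042 (SE) did not pass (limma adjusted p = 0.153).

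Anaphase and mitotic exit genes were higher in 4 of 5 cases. Separase, the protease that cuts cohesin, is encoded by Espl1, which had signals of 9.36, 9.32 and 9.31 in Ly49C/I+ cells, against 8.81, 8.77 and 8.83 in Ly49G2+ cells. These groups were tight, and the difference of 0.53 ± 0.043 (SE) had a limma adjusted p of 0.000129. Fbxo5, also named Emi1, an inhibitor of the anaphase-promoting complex, stood at 9.42, 9.51 and 9.50 in Ly49C/I+ cells and at 9.00, 8.88 and 9.01 in Ly49G2+ cells. It was 1.43-fold higher in Ly49C/I+ cells (0.51 ± 0.051, SE; limma adjusted p = 0.00028). Cdc20, the activator of the complex, and Ube2c, its ubiquitin-conjugating enzyme, were 1.25-fold and 1.18-fold higher. Pttg1, or securin, which inhibits separase, had 8.30, 8.45 and 8.41 in Ly49C/I+ cells, against 8.28, 8.30 and 8.21 in Ly49G2+ cells. Its groups nearly touched, and the difference of 0.12 ± 0.052 (SE) did not pass (limma adjusted p = 0.198). With the median over its 9 probe sets the difference of Pttg1 was -0.24 (limma adjusted p = 0.153), so its direction rests on how the probe sets are combined.

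Genes of the chromosomal passenger complex, which corrects wrong attachments and later guides cytokinesis, were higher in 4 of 4 cases. Birc5 (survivin) had 9.64, 9.39 and 9.49 in Ly49C/I+ cells, against 8.82, 8.72 and 8.87 in Ly49G2+ cells. It showed the largest difference of the 54 genes, 0.705 ± 0.067 (SE), or 1.63-fold (limma adjusted p = 0.000228), and rests on 6 probe sets, 4 of which did not overlap. Cdca8 (borealin) stood at 9.57, 9.63 and 9.55 in Ly49C/I+ cells and at 9.08, 9.02 and 9.12 in Ly49G2+ cells, which is 1.43-fold (0.51 ± 0.047, SE; limma adjusted p = 0.000197). The kinase of the complex, Aurkb, was 1.35-fold higher, with a difference of 0.43. Its scaffold Incenp was 1.28-fold higher, with a difference of 0.35.

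Centromere and kinetochore genes were higher in 9 of 9 cases, by 0.28 to 0.66 (median 0.42). Cenpk had 8.26, 8.40 and 8.32 in Ly49C/I+ cells, against 7.78, 7.50 and 7.72 in Ly49G2+ cells. Cenpi had 8.16, 8.20 and 8.24 in Ly49C/I+ cells, against 7.59, 7.58 and 7.58 in Ly49G2+ cells. Both encode proteins of the inner kinetochore, which sits on centromeric chromatin throughout the cycle, and neither gene's groups overlapped. Cenpk differed by 0.66 ± 0.074 and Cenpi by 0.61 ± 0.043 (SE), with limma adjusted p of 0.000475 and 6.86e-05. The Cenpi value was the lowest adjusted p of the 54 genes, with Ly49G2+ arrays that agreed within an SD of 0.0078, and Cenpi was also the gene of lowest signal among them. Cenpn, another inner kinetochore gene, was 1.43-fold higher. The Ndc80 complex, which binds microtubules, comprises Ndc80, Nuf2, Spc24 and Spc25, and these were 1.30-fold, 1.32-fold, 1.25-fold and 1.46-fold higher. Cenpf, of the outer kinetochore, was 1.34-fold higher, and Cenpa, the histone H3 variant that marks centromeres, 1.21-fold. Without Ly49C/I+ replicate 1 Spc24 had a limma adjusted p of 0.0557.

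Kinesin motors were higher in 10 of 10 cases, with the largest median difference (0.50) of the role groups, although role groups were not tested against each other. Kif20b, a motor of cytokinesis, stood at 8.70, 8.74 and 8.69 in Ly49C/I+ cells and at 8.13, 7.88 and 8.09 in Ly49G2+ cells. The difference of 0.68 ± 0.064 (SE), or 1.60-fold, had a limma adjusted p of 0.000228 and was the second largest of the 54. Kif18a, which aligns chromosomes at the spindle equator, had 8.60, 8.49 and 8.55 in Ly49C/I+ cells, against 8.08, 7.74 and 8.05 in Ly49G2+ cells. Its difference was 0.59 ± 0.083 (SE; limma adjusted p = 0.00154), with Ly49G2+ replicate 2 well below its group. The chromosome-bound motors Kif22 and Kif4 were 1.49-fold and 1.41-fold higher. Kif15, which helps to keep the spindle bipolar, and Kif2c, which depolymerises microtubules, were 1.43-fold and 1.42-fold higher. Cenpe, the kinetochore motor that moves chromosomes to the equator, was 1.33-fold higher, Kif20a of the central spindle 1.32-fold, and Kif23 of the same structure 1.23-fold. Kif11, the motor that pushes the spindle poles apart, was 1.22-fold higher, and its call was the least certain. It had 11.13, 10.92 and 11.16 in Ly49C/I+ cells, against 10.84, 10.74 and 10.78 in Ly49G2+ cells, and a limma adjusted p of 0.0226. With 1 array left out Kif11 did not pass in 4 of 6 fits, namely without Ly49C/I+ replicate 1 (0.0899), Ly49C/I+ replicate 3 (0.101), Ly49G2+ replicate 2 (0.0599) or Ly49G2+ replicate 3 (0.0628), all limma adjusted p.

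Spindle assembly genes were higher in 4 of 4 cases within a narrow range of 0.33 to 0.42. Nusap1, which bundles microtubules near chromosomes, had 10.92, 11.08 and 10.96 in Ly49C/I+ cells, against 10.59, 10.52 and 10.61 in Ly49G2+ cells. Aspm, a protein of spindle poles, had 9.35, 9.36 and 9.34 in Ly49C/I+ cells, against 8.97, 8.86 and 8.99 in Ly49G2+ cells. Their differences were 0.42 ± 0.054 and 0.41 ± 0.048 (SE; limma adjusted p = 0.00101 and 0.00061), and the groups of neither gene overlapped. Hmmr, a spindle and hyaluronan-binding protein, and Tpx2, which activates Aurka on microtubules, were 1.31-fold and 1.25-fold higher.

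Cytokinesis genes were higher in 4 of 4 cases. Prc1, which bundles the microtubules of the central spindle, had 10.01, 9.96 and 9.93 in Ly49C/I+ cells, against 9.39, 9.49 and 9.43 in Ly49G2+ cells. Ect2, the exchange factor that activates RhoA at the division plane, had 10.37, 10.35 and 10.30 in Ly49C/I+ cells, against 9.89, 9.93 and 9.84 in Ly49G2+ cells. For both, every Ly49C/I+ array lay at least 0.37 above every Ly49G2+ array. Prc1 differed by 0.53 ± 0.047 and Ect2 by 0.45 ± 0.046 (SE; limma adjusted p = 0.000178 and 0.000284). Racgap1, which joins Kif23 in the centralspindlin complex, was 1.24-fold higher, and anillin (Anln), a scaffold of the contractile ring, 1.29-fold.

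The chromosome proteins completed the set with 2 of 2 genes higher. Mki67 encodes Ki-67, the standard antigen of proliferating cells. Its signals were 11.29, 11.38 and 11.33 in Ly49C/I+ cells, against 11.01, 10.88 and 11.03 in Ly49G2+ cells. Top2a, the topoisomerase that untangles chromosomes, had 10.61, 10.68 and 10.67 in Ly49C/I+ cells, against 10.39, 10.30 and 10.37 in Ly49G2+ cells. Both genes were bright in each subset, and their groups did not overlap. The differences were 0.36 ± 0.053 and 0.30 ± 0.046 (SE; limma adjusted p = 0.00232 and 0.00264), which is 1.28-fold and 1.23-fold.

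**Figure D3:**
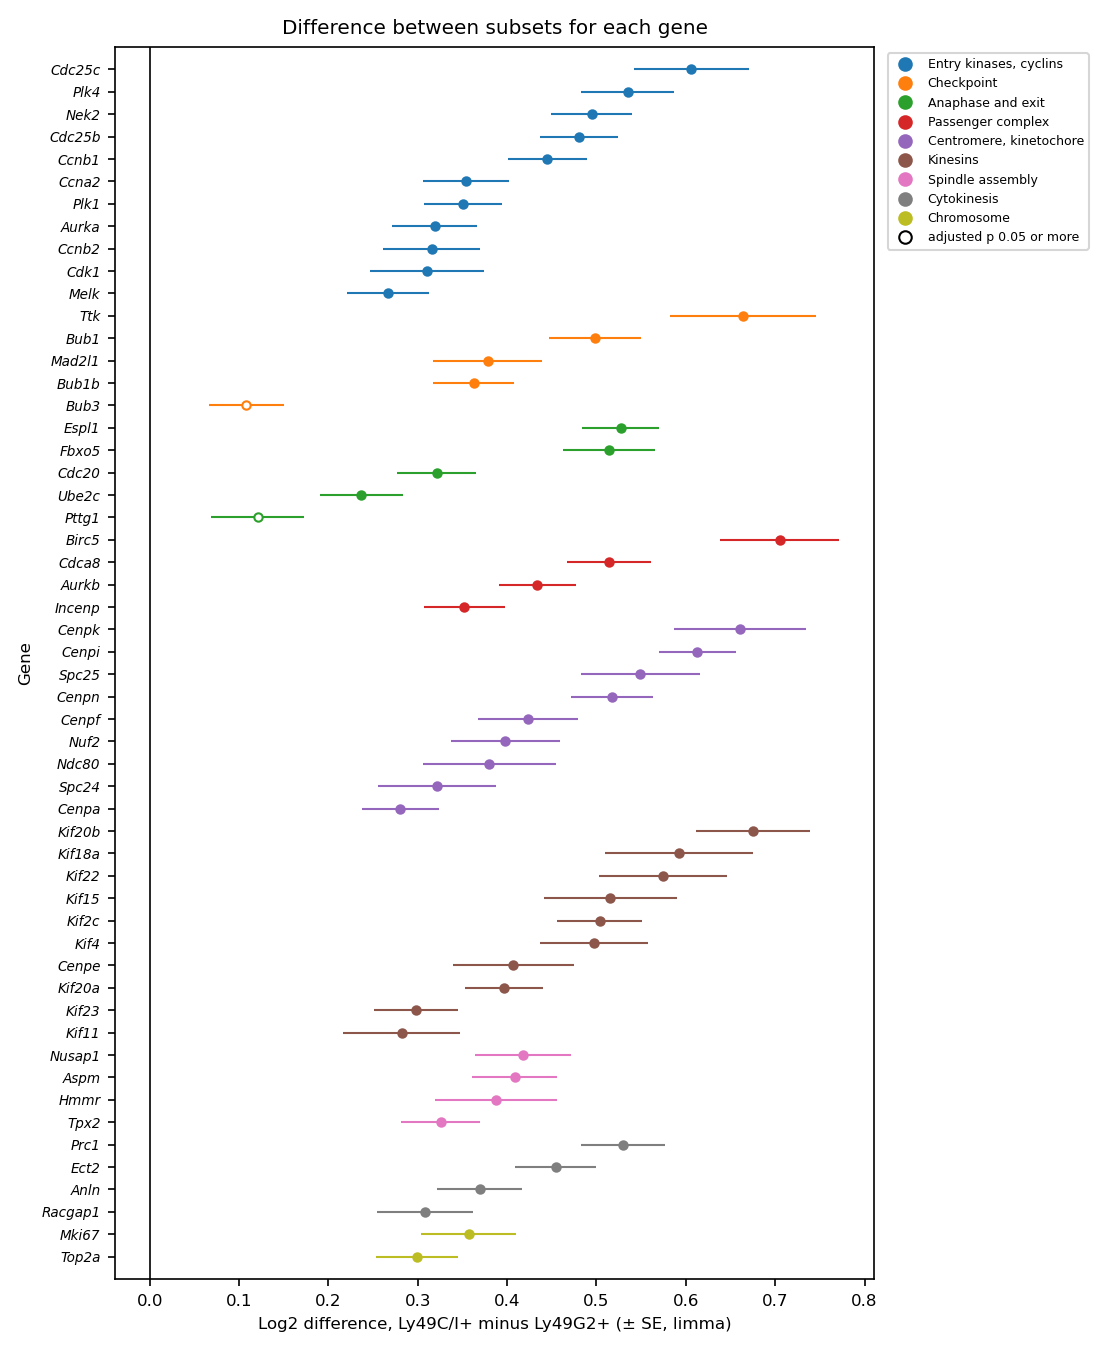
Log2 difference between Ly49C/I+ and Ly49G2+ cells (horizontal axis, ± SE from limma, n = 3 arrays each) for the 54 mitosis genes, ordered and coloured by role. Filled points passed an adjusted p of 0.05, and the open points are Bub3 (0.11) and Pttg1 (0.12).

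Over the 54 genes the shift was spread across most probe sets, but the mean of a single gene could rest on few. Pttg1 had 5 of 9 probe sets higher, with a largest difference of 0.75 against a gene mean of 0.12. All 6 probe sets of Birc5 were higher, but their differences ran from 0.23 to 1.49. The 54 genes have 959 exon-level probe sets, 5 to 46 per gene, and the signal was higher in Ly49C/I+ cells in 918 of them (95.7%), against 48.8% of the 227645 probe sets of all named genes. In 690 (71.9%) the groups did not overlap and Ly49C/I+ was higher, against 9.90% of all named probe sets, and in 3 Ly49C/I+ was lower on every array, against 8.70% of all named probe sets. These 3 belonged to Hmmr, Pttg1 and Spc25. The lowest difference of a single probe set, -0.88 in Kif11, came with overlapping groups. All probe sets of Aurkb, Ccnb1, Cenpa, Fbxo5 and Mad2l1 were higher without overlap. Of 487 probe sets above the arrays' upper quartile of signal, 82.1% were separated in this way, against 14.6% of all named probe sets in that range, with a median difference of 0.39. Of 330 between the median and the upper quartile 70.9% were, against 12.3% of all, with a median of 0.545. Of 99 between the lower quartile and the median 41.4% were, against 6.99% of all, with a median of 0.46. Of 43 below the lower quartile 34.9% were, against 5.14% of all, with a median of 0.37. The probe sets of the middle ranges thus had the higher medians, and the dimmest and the brightest the lower. On the gene level the dimmer genes differed more. The 27 genes with lower signal had a median difference of 0.50 and the 27 brighter 0.35, and across the 54 genes difference and mean signal had a Pearson correlation of -0.48 and a Spearman correlation of -0.49. This is a description across genes, which share the same 6 arrays and are not independent replicates.

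**Figure D4:**
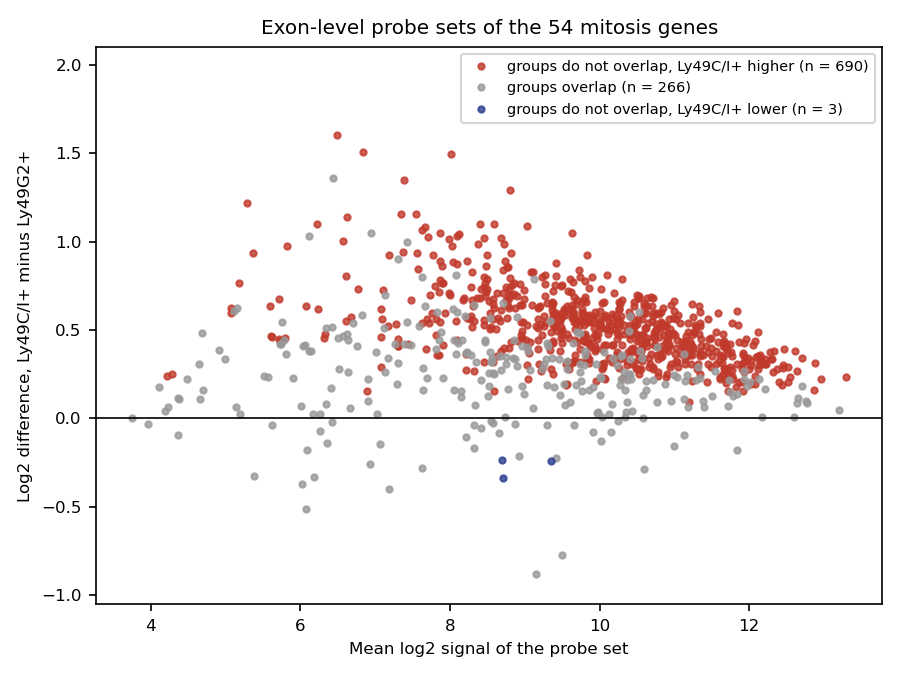
Log2 difference between Ly49C/I+ and Ly49G2+ cells (vertical axis) against mean log2 signal (horizontal axis) for the 959 exon-level probe sets of the 54 mitosis genes. Red points (690) had no overlap with Ly49C/I+ higher, grey points overlapped, and blue points (3) had no overlap with Ly49C/I+ lower.

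Several of the genes are represented by more than 1 transcript cluster on the array. Anln has a cluster of 24 probe sets at 9.48 in Ly49C/I+ cells, against 8.93 in Ly49G2+ cells, a difference of 0.55. Another of 12 probe sets stood at 5.86 in Ly49C/I+ cells, against 5.85 in Ly49G2+ cells, near the lower quartile of the arrays. The pooled value of 1.29-fold for Anln is therefore below that of its bright cluster, which stands at a ratio of 1.50 in the authors' deposited table. Top2a has 1 cluster of 38 probe sets at 11.43 in Ly49C/I+ cells, against 11.11 in Ly49G2+ cells, and 4 small clusters with signals under 8. The 3 clusters of Ccnb1 moved alike, with differences of 0.44, 0.495 and 0.43. Single probe sets also strayed on single arrays. Ly49C/I+ replicate 2 lay more than 0.5 below both other Ly49C/I+ arrays in 37 of the 959 probe sets (3.86%), close to the 3.68% over all named probe sets, and Ly49G2+ replicate 2 did so within its group in 68 (7.09%), against 3.31% of all.

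Other genes of mitosis and of neighbouring phases, not among the 54, were set beside them. For comparison, 6.19% of all genes were called higher and 3.77% lower. Of 30 further kinetochore and centromere genes 26 were higher and 0 lower, with a median difference of 0.45. Hjurp, the chaperone that deposits Cenpa, was 1.38-fold and Pmf1, of the Mis12 complex, 1.41-fold higher. Of 36 further spindle, motor and cytokinesis genes 23 were higher and 0 lower (median 0.33), with Pimreg at 1.59-fold and Cep55, a protein of the midbody, at 1.45-fold. The 13 genes of this list that did not pass ran from -0.18 for Kif3a to 0.18 for Haus7. They include Numa1, Tubg1, Kif5b and Kif2a, with differences between -0.093 and 0.096, and Psrc1 (-0.048) and Gtse1 (0.17). In the kinetochore and centromere list the 4 that did not pass ran from -0.076 for Zwint to 0.12 for Mad2l1bp. The genes that did not pass were named after their values were seen.

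Among 21 condensin and cohesin genes 9 were higher and 0 lower, with a median of 0.17. Cdca5 (sororin), which protects cohesin from release, was 1.54-fold and the condensin II subunit Ncapd3 1.44-fold higher. The cohesin core genes Smc1a, Smc3, Rad21 and Stag2 had differences of 0.17, 0.17, 0.16 and -0.055, and none passed (limma adjusted p 0.053 to 0.544). They were named after their values were seen. Of 16 genes of the anaphase-promoting complex and its partners, Anapc11 alone was called higher (1.17-fold), and 0 were lower. That is 6.25% higher, close to the 6.19% of all genes, and the median difference was 0.079. Without regard to the call, every Ly49C/I+ array was higher for 6 of the 16 and lower for 0. Over all genes these shares were 14.2% and 13.6%. Fzr1, an activator used in late mitosis and G1, had a difference of 0.14 (limma adjusted p = 0.0841). Whether these lists differ from the 54 genes was not tested. At an unadjusted p under 0.05, 1 gene was lower among the spindle genes and 1 among the entry regulators given next, and none in the other lists with 0 lower.

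Of 23 regulators of mitotic entry and of the DREAM and MuvB complexes 15 were higher and 0 lower (median 0.31). E2f8, a repressor of the cycle's genes, was 1.49-fold and Ccnf (cyclin F) 1.40-fold higher. The transcription factors Foxm1 and Mybl2, which bind MuvB and drive genes of G2 and M phase, were 1.46-fold and 1.30-fold higher, and were named for this role after their values were seen. The 8 genes of this list that did not pass ran from -0.11 for Rbl2 to 0.21 for Rbl1. They include E2f4 (0.088), Lin37 (0.029) and Lin52 (0.17), also named after their values were seen. The part of these regulators in the shift was not tested. DNA replication genes were higher in 36 of 40 cases and lower in 0, with a median difference of 0.33, so this list shifted in the same direction. It was chosen with earlier results of these data known, and its count fell under other settings, as given at the end. The 4 that did not pass ran from -0.034 for Gins4 to 0.15 for Tyms, both named after their values were seen. Mcm10 and Pola2, which act at the replication fork, were 1.42-fold and 1.32-fold higher. Genes of G1 went both ways, with 3 of 18 higher (16.7%) and 2 lower and a median of 0.054. Over all genes 6.19% were called higher and 3.77% lower. Cdkn2c, whose product blocks the G1 kinases, was 1.52-fold higher in Ly49C/I+ cells, and Cdk2, a kinase of S phase entry, 1.60-fold. Cdkn2b, another blocker of the G1 kinases, and the G1 kinase Cdk6 had differences of -0.495 and -0.32 and were lower (limma adjusted p = 0.000253 and 0.00153).

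**Figure D5:**
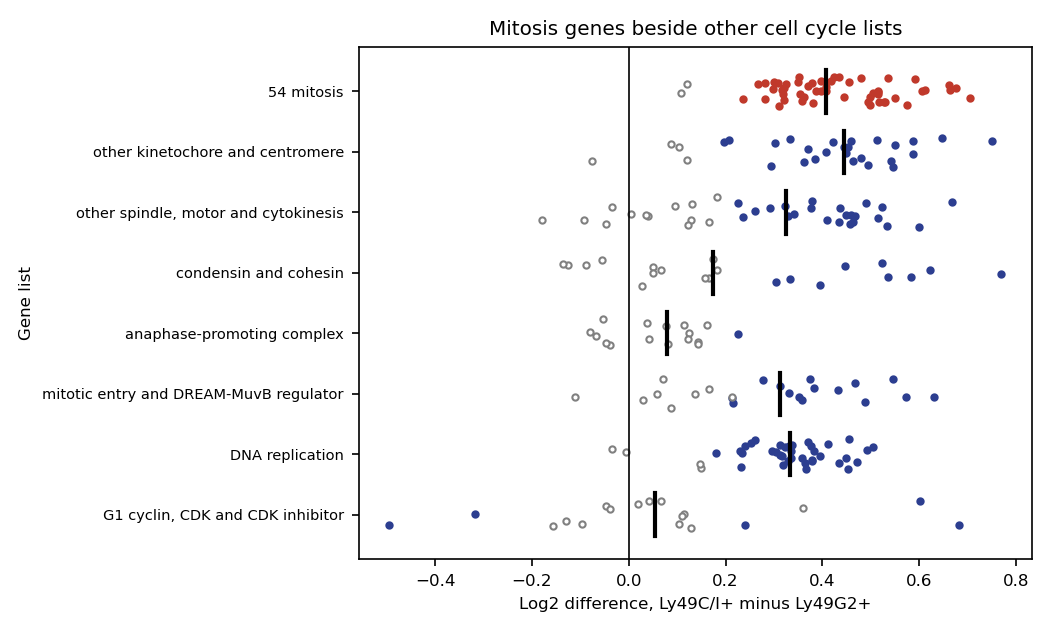
Log2 difference between Ly49C/I+ and Ly49G2+ cells (horizontal axis) for each gene of the 54 mitosis genes in red and of 7 other cell cycle lists in blue, with list medians as black bars and genes that did not pass as open grey points. The bar of the 54 genes stands at 0.41, that of the DNA replication genes at 0.33 and that of the anaphase-promoting complex at 0.079.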

How the data were processed

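Gene expression was measured on Affymetrix-labelled arrays in 3 Ly49C/I+ and 3 Ly49G2+ samples of sorted mouse NK cells. Groups and replicate numbers come from the sample titles. Per the labels, 100 ng of RNA with integrity numbers above 9 was amplified. Partek and RMA are named per the submitters' processing notes, and versions and build are not given in the sources used here. The authors deposited log2 signals of 241576 exon-level probe sets per array. Their other file lists 35556 transcript clusters with log2 means, a p-value from an ANOVA and a ratio (Ly49C/I+ over Ly49G2+), per the file headers. A signed fold column of the deposited table was not used.

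Probe sets were joined to the cluster whose ID they follow in an unbroken run (241383 placed, 193 left out). Run means and the deposited means correlated at r = 0.990 across clusters, which are not independent, and group differences at r = 0.977. With runs shifted by 1 cluster the difference correlated at r = 0.192. Symbols were updated through RefSeq accessions of GRCm38.p6 (1926 clusters). Signals were averaged over all probe sets of a gene (21442 genes) and tested two-sided in R 4.3.3 by limma 3.58.1 (lmFit, then eBayes, no signal filter, Benjamini-Hochberg over all genes). The fit was also run on data simulated with noise drawn separately for each gene. That setting lacks the shared deviation of Ly49G2+ replicate 2, so no conclusion is drawn from it here. Python 3.11.15, pandas 2.3.3, numpy 2.4.6 and matplotlib 3.10.9 were used. The genes, lists and role groups were chosen with earlier results of these data known. Genes with values on every array are the 3 of largest difference, the dimmest, the 2 of largest difference per role and those that did not pass. Kif11 was added after its values were seen, as were others named so in the text. From each other list the 2 genes of lowest p and any called against its median are named. Trac, Trbc1, Bora, Ska2 and Kifc1 matched no gene tested here. Alternatives were other moderation, normalization, filters, weights, probe set summaries, a replicate block, the deposited p-values and each array left out.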

Additional observations from a re-analysis of the deposited data

How the results depend on the processing

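Over 18 alternative analyses, 2 of them (clusters averaged first, and the largest cluster only) chosen after seeing the data, 23 of the 52 genes called passed in all. The differences of 53 of the 54 genes stayed above 0, and the exception was Pttg1 at -0.24 with the median over probe sets. The median over probe sets gave 33 genes higher and a median difference of 0.45, and fits without moderation gave 32. For the median over probe sets the cause was not tested, whereas without moderation each gene's spread rests on its own 6 arrays. The deposited p-values gave 37. Among other lists, the median over probe sets gave 16 of 30 kinetochore, 14 of 36 spindle, 20 of 40 DNA replication and 0 of 16 anaphase-promoting complex genes higher. Of all genes 2.18% were. Without moderation these numbered 6, 14, 17 and 0, with 9 of 23 mitotic entry regulators, where 2.48% of all genes were higher. With the deposited p-values 6 kinetochore genes and 9 mitotic entry regulators were higher and 1 regulator lower, where 2.26% of all transcript clusters were higher. A variance trend with robust moderation gave 3 anaphase-promoting complex genes higher, where 1628 of all 21442 genes were. A filter at the median signal gave 4, where 1598 of the 10721 genes kept were higher. With 1 array left out, 50 to 52 of the 54 genes were higher and 0 lower, with medians of 0.38 to 0.43. The anaphase-promoting complex then had 0 to 1 higher, spindle and cohesin lists 0 to 1 lower each, and G1 genes 2 to 4 higher. Of the 54 genes' probe sets, 727 to 761 did not overlap with 1 array left out, since fewer arrays are compared.

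Same-numbered samples did not deviate together (correlations over genes of -0.074, -0.18 and -0.047 for numbers 1, 2 and 3). No Ly49C/I+ sample correlated best with its own number. Deviations around means of 3 arrays cannot show whether samples shared a mouse or culture, so whether the numbers pair the samples is not known. With the replicate block, 52 of the 54 genes were called higher and 0 lower, and the calls over all genes were 1012 higher and 528 lower, against 1327 and 809 without it. Over all genes, calls higher and lower were 1451 and 1091 with array weights, and 1331 and 712 after median centring. They were 467 and 224 with the median over probe sets, and 531 and 337 without moderation. With 1 array left out, genes higher numbered 880 (without Ly49C/I+ replicate 2) to 1114 (without Ly49G2+ replicate 2), and genes lower 423 (without Ly49C/I+ replicate 3) to 783 (without Ly49G2+ replicate 2). The 3 arrays per group leave small differences such as those of Bub3 and Pttg1 unresolved, and Bub3 passed with a trend and robust moderation (limma adjusted p = 0.0453).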
